A study of Mus musculus with 6 samples.

Results

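The clustered protocadherins are 58 genes of the 56748 in the deposited table of brain expression. They were taken by symbol as every gene whose name begins with Pcdha, Pcdhb or Pcdhg and goes on with an isoform number or letter code, with no filter on expression. The alpha cluster held 14 members, namely the 12 alternate genes Pcdha1 to Pcdha12 and the C-type genes Pcdhac1 and Pcdhac2. The beta cluster held 22 members, Pcdhb1 to Pcdhb22. The gamma cluster held 22 members, of which 12 were A-type, 7 were B-type and 3 were the C-type genes Pcdhgc3, Pcdhgc4 and Pcdhgc5. One alpha gene, ENSMUSG00000007440, shares the symbol Pcdha11 with another gene in the symbol table, but its transcript is cross-referenced to Pcdha10, and it is called Pcdha10 here. For Pcdhgb8 no RefSeq symbol was found through its transcripts, and it keeps the name of the symbol table.

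Clustered protocadherins are cell surface proteins of the cadherin superfamily that bind the same isoform on a facing membrane. In the alpha and gamma clusters each variable exon has its own promoter, codes for the extracellular part of 1 isoform and is spliced to constant exons shared by the whole cluster, whereas beta genes have no constant exons. A neuron transcribes a small, largely random choice of the alternate genes, through promoters bound by CTCF and looped to enhancers by cohesin, while the C-type genes are transcribed more evenly across neurons. The resulting surface code lets a neuron tell its own branches from those of other neurons, and the gamma cluster is also needed for the survival of many interneurons. Whole tissue averages these choices over many cells.

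Brain tissue came from mice implanted with MCF10DCIS, a human line that models ductal carcinoma in situ, whose cells carry the vesicle protein CD63 fused to the luciferase NanoLuc. The comparison was between 3 libraries at 3 days after implantation and 3 libraries at 28 days. Every library came from an implanted mouse, and the labels give no strain, age or sex of the host and no brain region, so time since implantation cannot be told apart from age. The labels do not say that libraries of a day came from separate animals, so each p-value measures only the spread between these samples, which may be technical.

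Depth was 11958137 to 16059196 recovered reads per library, of which the members took 0.0449% to 0.0602%. A gene's level is given as a normalized count, that is, its reads divided by the library's size factor. In all, 31 of 16162 tested genes passed the threshold (limma, adjusted p under 0.05). The 12 pan-neuronal markers were present at similar summed levels on both days, 127960 to 139326 normalized counts at day 3 and 128690 to 136867 at day 28. Single markers of that list did differ, with 4 lower and 2 higher at day 28 without overlap. Over all tested genes 9.21% were lower and 9.71% higher without overlap. The similar sum therefore does not show that neuronal content was equal. Regional markers set libraries apart: the 18 cerebellar markers summed to 47005 at the highest day 3 library, against 12838 at the lowest and 15570 to 19183 at day 28, and day 3 replicates 1 and 2 were the high ones. Results on the members are therefore also given without those 2 libraries. The 14 hindbrain and midbrain markers differed between the days in every library, with sums of 756 to 2076 at day 3 and 267 to 555 at day 28. One of them, Slc6a3, was at 183, 188 and 190 normalized counts at day 3 and at 3.99, 1.79 and 2.84 at day 28. Fits without day 3 replicates 1 and 2 do not remove that difference between the days. In tissue, fewer cells of a type and less RNA per cell cannot be told apart.

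The members differ in how far reads can be assigned to them. In the GENCODE M21 models every alpha gene shares at least 2860 bases of exon with its neighbours and every gamma gene at least 2116, while beta genes share none except Pcdhb21 and Pcdhb22, which overlap by 455 bases. Stretches of 50 bases that also occur in another member made up 43.7% to 63.9% of an alpha gene, 26.9% to 65.3% of a gamma gene and 0% to 11.99% of a beta gene. How the authors treated reads in the constant exons is not given in the sources used here, so single alpha and gamma values are less certain than beta values. The 5 annotated genes that overlap members on the same strand, Gm18150, Gm37013, Gm37388, Gm38182 and Gm42416, had 0 reads in all 6 libraries. Antisense genes cover an exon of 13 members, and 11 of these lie under one with a read. The libraries were stranded, but the sources used here do not say that the counting used strand. The antisense gene with the most reads, Gm26672, over Pcdhga10, Pcdhgb7, Pcdhga11 and Pcdhga12, had 17 to 38 per library.

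All 58 members had a read in some library, 56 had one in all 6, and 51 had at least 10 reads in all 6. The alternate alpha genes were the weakest group, with 6 of 12 at 10 reads or more in all 6 libraries, against 21 of 22 beta genes and all 22 gamma genes. Pcdha4 had 0 reads in all 3 day 3 libraries, which allows up to 3 reads over the group, and 1 read at day 28, in replicate 1. Pcdha4 also has the least exon of its own, 494 of 5768 bases, and the gene Gm42416 overlaps its exons. Its level was at the limit of detection at this depth on both days.

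Pcdhb1, the first gene of its cluster, had 4 reads at day 3, all in replicate 2, and 15 at day 28, with 5 in each library. The exact 95% Poisson intervals of these sums, 1.09 to 10.2 and 8.40 to 24.7 reads, cover counting error only. They overlap, but overlap of 2 such intervals is not a test of the difference. In normalized counts Pcdhb1 was at 0, 4.11 and 0 at day 3 and at 4.99, 4.46 and 4.74 at day 28, without overlap by a narrow gap. Pcdha8 had 15 reads at day 3 and 18 at day 28, and on each day most of them lay in 1 library. These 3 genes had mean normalized counts under 10 and were not tested. The other 55 members were tested, 12 alpha, 21 beta and all 22 gamma.

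Levels of different genes were compared per kilobase of exon that no other gene covers. All counted reads of a gene were divided by that length. If reads in shared exons were counted, alpha and gamma levels are overstated against beta levels. The ranking of clusters and the shares per kilobase carry that limit. Summed this way over the 6 libraries, the gamma cluster was the largest at 1277 normalized counts per kilobase, the beta cluster followed at 639 and the alpha cluster came last at 287. Of the C-type genes, 3 stood above every alternate gene of their own cluster. Pcdhgc3 was at 334 per kilobase at day 3 and 287 at day 28, Pcdhgc5 at 185 and 276, and Pcdhac2 at 128 and 173. Pcdhgc4, at 49.6 and 35.5, and Pcdhac1, at 9.11 and 16.4, lay among the alternate genes.

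The 5 C-type genes held 34.5% to 36.2% of all members' level per kilobase at day 3 and 30.8% to 34.7% at day 28, and these ranges overlap. Within the alpha cluster Pcdhac2 alone held 50.3% to 56.1% at day 3 and 48.0% to 56.0% at day 28. Among alternate genes the levels were flatter. In the alpha cluster they ran from Pcdha1, at 3.54 per kilobase at day 3 and 4.54 at day 28, to Pcdha12, at 19.8 and 28.4, leaving out the untested genes. Tested beta genes ran from Pcdhb4, at 10.7 and 10.1, to Pcdhb7, at 53.8 and 68.3. Gamma A genes of high level included Pcdhga11, at 61.8 and 80.3, and the gamma B gene Pcdhgb6 was at 59.2 and 61.1.

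Position in the cluster and level per kilobase went together to different degrees. Spearman's rho between them was 0.36 over the 12 alternate alpha genes, -0.00169 over the 22 beta genes, 0.27 over the 12 gamma A genes and 0.57 over the 7 gamma B genes. These are descriptions over genes that share libraries and reads.

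**Figure D1:**
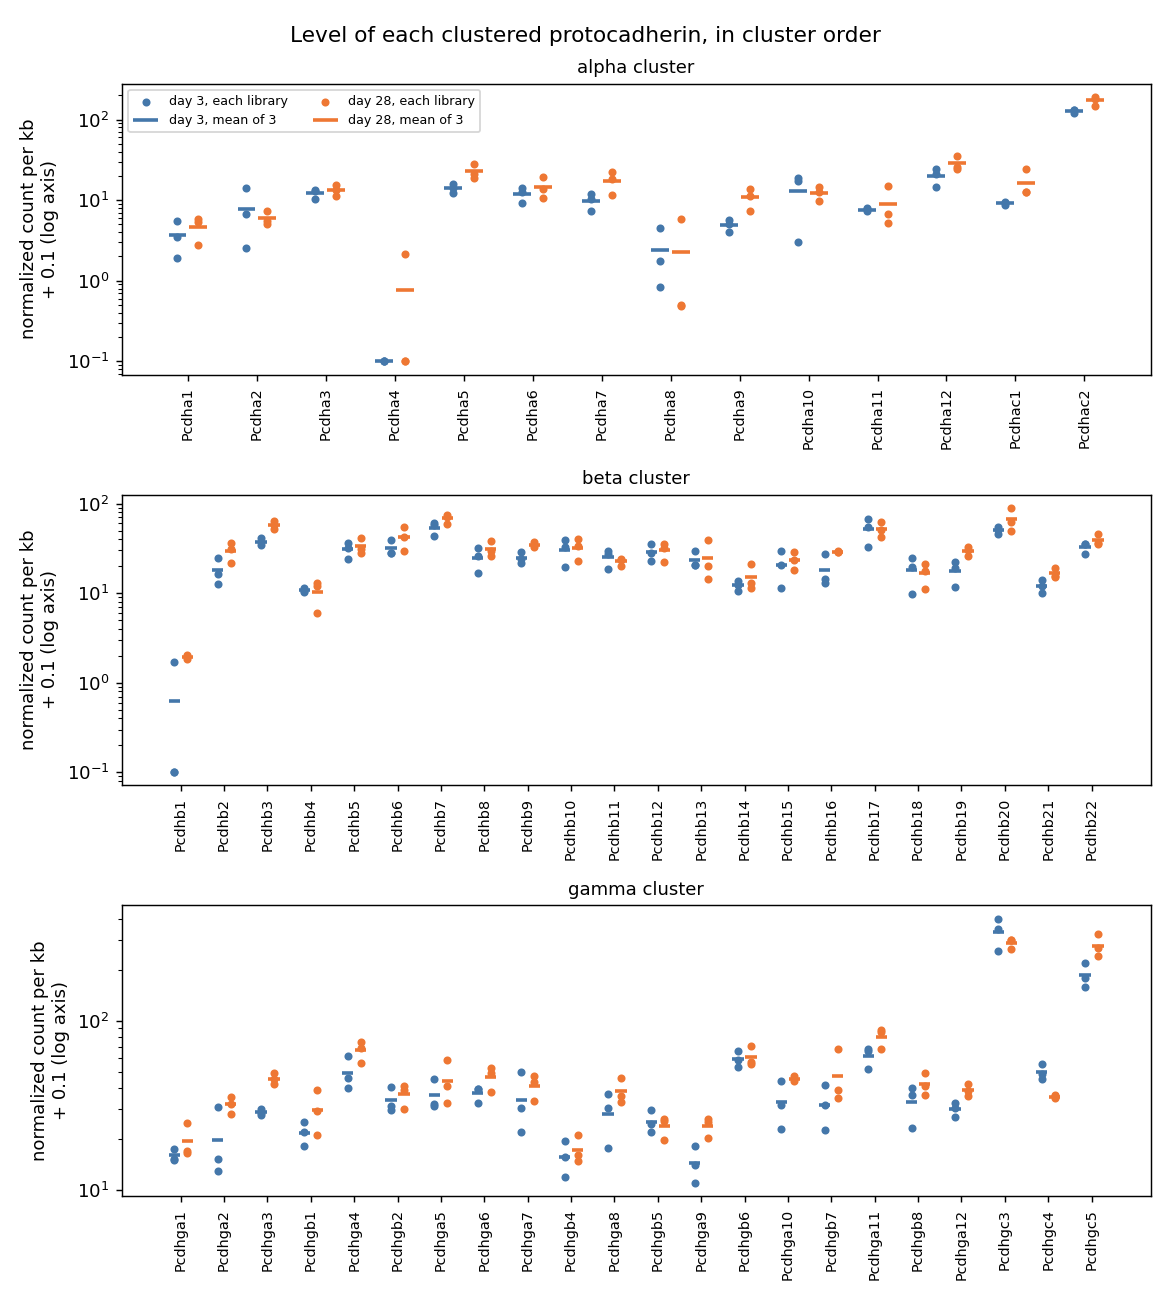
Level of each of the 58 members in cluster order, as normalized counts per kilobase of exon of its own plus 0.1 on a log axis, with 1 point per library and a bar at the mean of each day. Pcdhac2, Pcdhgc3 and Pcdhgc5 stand above the other members of their clusters, and Pcdha4 and Pcdhb1 lie lowest.

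No member passed the test between the days. Of the 55 tested, 0 had a limma adjusted p under 0.05, where 0.192% of all tested genes did, and the smallest was 0.159, for Pcdhgc5. At an unadjusted p under 0.05 there were 7 members higher at day 28, against 6.98% of all genes, and 1 lower, against 6.39%. With voom on the recovered reads 0 members passed and 8 had an unadjusted p under 0.05, and voom called 0 genes in the whole table. Without day 3 replicate 3 the test called 618 genes, among them 1 member, Pcdhgc5 (limma adjusted p = 0.0395). With every other library left out in turn it called 0 members.

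Most fitted differences nevertheless had the same sign. The log2 difference, day 28 minus day 3, was above 0 for 47 of 55 members, while it was above 0 for 48.6% of all tested genes. The median was 0.35 over the members and -0.01 over all genes. By cluster, 11 of 12 alpha genes were above 0 with a median of 0.40, 17 of 21 beta genes with a median of 0.26 and 19 of 22 gamma genes with a median of 0.37. Members share reads and libraries, so these counts are a description and carry no test.

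The groups did not overlap, with all 3 day 28 libraries above all 3 of day 3, for 15 of 55 members, 5 in each cluster, against 9.71% of all genes. They did not overlap in the other direction for 1 member, Pcdhgc4, against 9.21% of all genes. Without day 3 replicates 1 and 2, which held the most cerebellar transcripts, 45 of 55 differences were above 0 and the median was 0.34. With only 1 day 3 library left, the groups did not overlap for 33 members in the higher direction and 4 in the lower, where 29.6% of all genes were higher without overlap. With the mean of the cerebellar markers as a covariate, 43 of 55 differences were above 0 with a median of 0.32, and the cluster medians were 0.58 for alpha, 0.13 for beta and 0.37 for gamma. Without day 3 replicate 2 alone the alpha median was 0.68, and without day 28 replicate 3 alone the beta median was 0.43.

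A cluster's sum does not depend on how reads were divided among its members, though it does depend on whether reads in shared exons were counted at all. The alpha cluster summed to 712, 730.01 and 609 normalized counts in the day 3 libraries and to 862, 1005 and 898 in the day 28 libraries. All day 28 libraries were above all day 3 libraries, and the ratio of the means was 1.35. The beta cluster summed to 2375, 2068 and 2545 at day 3 and to 3134, 2819 and 2682 at day 28, again without overlap and with a ratio of 1.24. The gamma cluster summed to 4256, 3697 and 3593 at day 3 and to 4563, 4799 and 4174 at day 28. There the groups overlapped, since day 3 replicate 1 was above day 28 replicate 3, and the ratio was 1.17. An exact permutation test of 3 against 3 libraries cannot give a two-sided p below 0.10, so none was run. Without day 3 replicates 1 and 2 the ratios were 1.51 for alpha, 1.13 for beta and 1.26 for gamma.

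**Figure D2:**
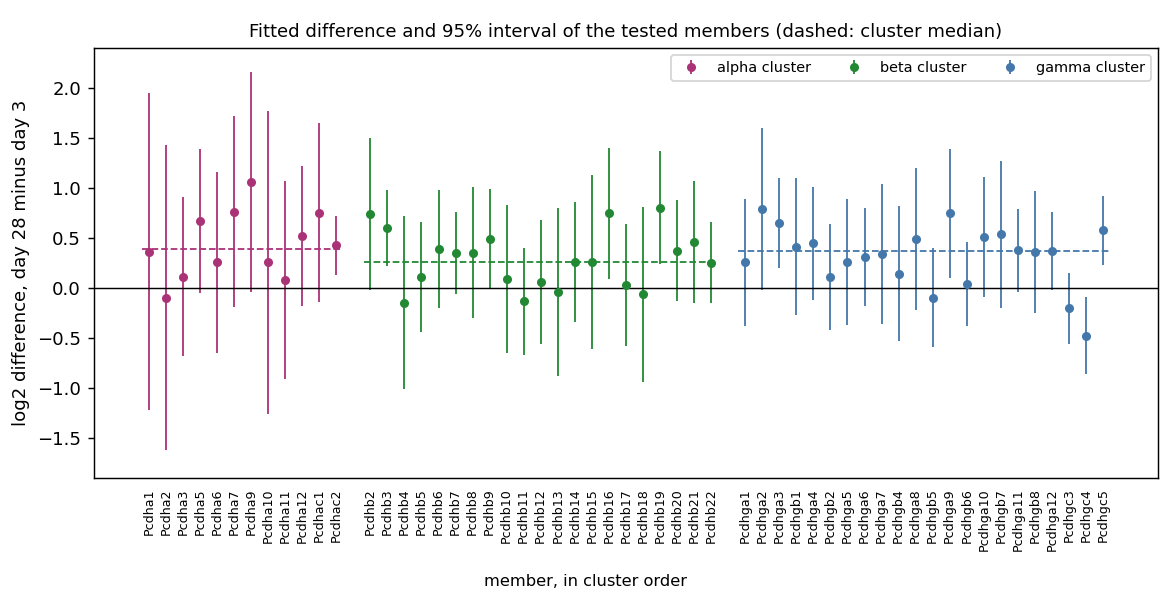
Fitted log2 difference, day 28 minus day 3, of each tested member in cluster order, with its 95% interval from limma and a dashed line at each cluster's median (0.40, 0.26 and 0.37). Points lie above 0 for 47 of 55 members, and among the C-type genes at the right end of the gamma cluster Pcdhgc3 and Pcdhgc4 lie below 0 and Pcdhgc5 above.

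The gamma C-type genes did not share a direction. Pcdhgc5, an isoform known for appearing late in postnatal brain, was at 823, 728 and 1011 normalized counts at day 3 and at 1227, 1488 and 1104 at day 28. Every day 28 library was above every day 3 library, and day 3 replicate 3 came closest to day 28. The fitted log2 difference was 0.58 (SE 0.15, 95% interval 0.23 to 0.92, n = 3 libraries a day, limma adjusted p = 0.159). Without day 3 replicates 1 and 2 it was 0.32, and with the cerebellar covariate 0.34.

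Pcdhgc4, the isoform on which interneuron survival is known to depend, had the opposite sign. It was at 157, 169 and 192 normalized counts at day 3 and at 126, 124 and 120.4 at day 28. The day 28 libraries were close together and all below day 3. The log2 difference was -0.47 (SE 0.17, 95% interval -0.86 to -0.09, limma adjusted p = 0.272), and it was -0.64 without day 3 replicates 1 and 2.

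Pcdhgc3, which is known to promote dendrite branching through Axin1, had the highest level of all members per kilobase. It was at 1350.1, 1166 and 871 normalized counts at day 3 and at 1007, 1012 and 889 at day 28. Day 3 replicates 1 and 2 were above all other libraries and day 3 replicate 3 was below them all, so the groups overlapped. The log2 difference was -0.20 (SE 0.16, limma adjusted p = 0.623) and 0.15 without day 3 replicates 1 and 2, the same libraries that held the most cerebellar transcripts. The part of tissue region in Pcdhgc3 was not tested beyond that. The antisense gene BC037039 over Pcdhgc3 was counted at 34, 19 and 10 reads in the day 3 libraries against 8, 12 and 10 in those of day 28.

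The balance among the gamma C-type genes was compared as ratios of normalized counts, chosen after their values were seen and not tested. Pcdhgc5 over Pcdhgc4 was 5.26, 4.32 and 5.26 at day 3 and 9.75, 11.99 and 9.17 at day 28, with no overlap between days. Pcdhgc5 over Pcdhgc3 was 0.610, 0.624 and 1.16 at day 3 and 1.22, 1.47 and 1.24 at day 28. In that ratio day 3 replicate 3 lay near the day 28 libraries and apart from the other day 3 libraries. Scaling of libraries does not enter either ratio.

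The alpha C-type genes were both higher at day 28 in every library. Pcdhac2, which serotonergic neurons need to space their axons evenly, was at 399, 399 and 365 normalized counts at day 3 and at 448, 579 and 545 at day 28. The day 3 libraries were close together and the day 28 libraries lay above them all. The log2 difference was 0.43 (SE 0.13, 95% interval 0.13 to 0.72, limma adjusted p = 0.211). The 9 serotonergic markers went the other way, with a summed level of 804 to 878 at day 3 and 309.9 to 443 at day 28, and Gata3, Slc6a4 and Fev at 0 in some library. The hindbrain and midbrain markers were lower at day 28 too, with a median log2 difference of -3.47 over 11 tested genes. Any link between these markers and Pcdhac2 was not tested. Pcdhac1 was at 21.98, 23.6 and 24.3 normalized counts at day 3 and at 31.9, 61.6 and 32.2 at day 28, where replicate 2 alone set most of the distance. Its log2 difference was 0.75 (SE 0.39, limma adjusted p = 0.446).

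**Figure D3:**
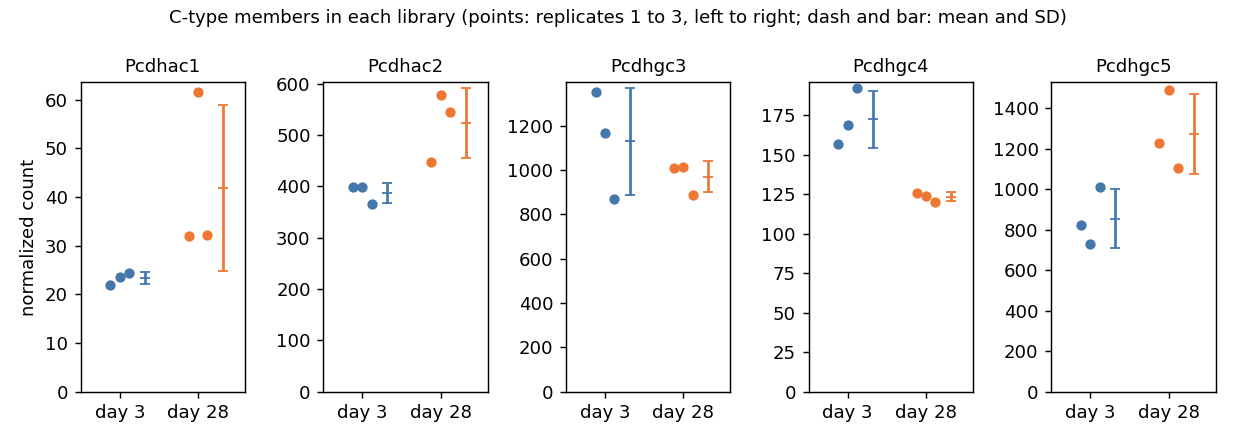
Normalized counts of the 5 C-type members in each library, with points for replicates 1 to 3 from left to right and the mean ± SD of each day (n = 3) beside them, each panel on its own axis from 0. Pcdhac2 and Pcdhgc5 are higher in all day 28 libraries, Pcdhgc4 is lower in all of them, and Pcdhgc3 overlaps between days.

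The alternate alpha genes, each the choice of few neurons, were counted from few reads and were the least precise members. Of 10 tested, 9 had a difference above 0, against 48.6% of all tested genes, with a median of 0.31 and a median SE of 0.43. Of the 10, 3 were higher at day 28 without overlap, against 9.71% of all tested genes. Pcdha9 had the largest fitted difference of all members. It was at 13.7, 12.3 and 9.74 normalized counts at day 3 and at 28.0, 33.9 and 18.01 at day 28. All day 28 libraries were above day 3, and the log2 difference was 1.06 (SE 0.48, 95% interval -0.04 to 2.16, limma adjusted p = 0.385).

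Pcdha5 and Pcdha12, among the alternate alpha genes of highest level, also did not overlap between days. Pcdha5 was at 28.4, 37.0 and 32.9 normalized counts at day 3 and at 48.9, 66.1 and 44.5 at day 28 (log2 difference 0.67, SE 0.32, limma adjusted p = 0.405). Pcdha12 was at 52.2, 59.6 and 35.3 at day 3 and at 62.9, 60.7 and 87.2 at day 28 (log2 difference 0.52, SE 0.31, limma adjusted p = 0.503). In both genes the gap between the days was narrow against the range within a day. Pcdha7 had a log2 difference of 0.76 (SE 0.42), with day 3 replicate 3 above day 28 replicate 3. Pcdha11 was at 34.8, 32.9 and 36.5 at day 3, and of the day 28 values, 68.9, 30.4 and 23.7, replicate 1 alone was above them.

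Some alternate alpha genes nearly vanished from single libraries. Pcdha10 was at 43.0 and 46.3 normalized counts in day 3 replicates 1 and 2 and at 7.30 in replicate 3, against 24.0, 35.7 and 31.3 at day 28. Pcdha2 was at 34.8, 16.5 and 6.09 at day 3 and at 17.97, 13.4 and 12.3 at day 28. Both were named after their values were seen, and in both the same library, day 3 replicate 3, was lowest of the 6. Of the 12 tested alpha genes, 7 were lowest of the 6 libraries in day 3 replicate 3. The same share over all tested genes was not counted.

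Beta genes give the values least touched by shared sequence. Of 21 tested, 17 had a difference above 0, 5 did not overlap in that direction and 0 in the other. Over all tested genes 48.6% were above 0, and 9.71% were higher and 9.21% lower without overlap. Pcdhb3 had the smallest p among the beta genes. It was at 157, 142 and 129 normalized counts at day 3 and at 217, 239 and 195 at day 28, and the days were well apart. Its log2 difference was 0.60 (SE 0.17, 95% interval 0.23 to 0.98, limma adjusted p = 0.172).

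Pcdhb19 and Pcdhb16 had the largest differences in the beta cluster. Pcdhb19 was at 157, 83.3 and 134 normalized counts at day 3 and at 216, 185 and 236 at day 28 (log2 difference 0.80, SE 0.25, limma adjusted p = 0.215). Pcdhb16 was at 144, 67.9 and 74.2 at day 3 and at 149, 152 and 154 at day 28 (log2 difference 0.75, SE 0.29, limma adjusted p = 0.305). Neither gene overlapped between days, but for Pcdhb16 day 3 replicate 1 lay just under the day 28 values.

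The beta genes of highest normalized count, a scale on which long genes count for more than per kilobase, overlapped between days. Pcdhb17 was at 257, 153 and 316 normalized counts at day 3 and at 291, 197 and 233 at day 28, with a log2 difference of 0.03 (SE 0.27). Pcdhb7 was at 153, 202 and 211 at day 3 and at 261, 208 and 248 at day 28, with a log2 difference of 0.35 (SE 0.18). Pcdhb22 was at 217, 167 and 217 at day 3 and at 280, 215 and 222 at day 28, with a log2 difference of 0.25 (SE 0.18). Of these 3 genes Pcdhb17 had the widest spread within a day. Its direction depended on single libraries, since the difference was -0.26 without day 3 replicate 2.

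Among the beta genes of lowest level, Pcdhb21 did not overlap between days and Pcdhb4 did. Pcdhb21 was at 51.3, 42.2 and 59.6 normalized counts at day 3 and at 65.9, 80.4 and 64.5 at day 28 (log2 difference 0.46, SE 0.27). Pcdhb4 was at 38.5, 38.0 and 42.6 at day 3 and at 21.96, 43.8 and 47.4 at day 28 (log2 difference -0.14, SE 0.38). For Pcdhb4 only day 28 replicate 1 was below the day 3 range.

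All 12 gamma A genes had a fitted difference above 0, where 48.6% of all tested genes did. It ran from 0.26 to 0.79 with a median of 0.41. Of the 12 genes, 4 were higher at day 28 without overlap, against 9.71% of all tested genes. Summed, the gamma A genes were at 1222, 1005 and 932 normalized counts at day 3 and at 1437, 1451 and 1352 at day 28. The ratio of the means was 1.34, and no day 3 library reached the day 28 range. Pcdhga3 varied least within a day. It was at 74.2, 78.1 and 71.8 normalized counts at day 3 and at 117, 127 and 109.9 at day 28, so the days were far apart against the range within each. Its log2 difference was 0.65 (SE 0.20, 95% interval 0.20 to 1.10, limma adjusted p = 0.211), and it lay between 0.60 and 0.70 under every setting tried.

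Pcdhga2 and Pcdhga9 had the largest differences among gamma A genes. Pcdhga2 was at 79.7, 32.9 and 38.9 normalized counts at day 3 and at 90.8, 83.0 and 72.0 at day 28 (log2 difference 0.79, SE 0.36, limma adjusted p = 0.382). Pcdhga9 was at 48.5, 62.7 and 37.7 at day 3 and at 69.9, 87.5 and 91.0 at day 28 (log2 difference 0.75, SE 0.28, limma adjusted p = 0.298). Pcdhga9 did not overlap between days, whereas day 3 replicate 1 of Pcdhga2 was above day 28 replicate 3. Pcdhga11 and Pcdhga12, high in normalized count but, for Pcdhga12, not per kilobase, did not overlap either, with log2 differences of 0.38 (SE 0.18) and 0.37 (SE 0.17). Pcdhga1 and Pcdhga7 had differences of 0.26 (SE 0.28) and 0.34 (SE 0.31) and overlapped.

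The gamma B genes lie among the A genes on the chromosome and share their constant exons, but had a lower median difference. It was 0.15 over 7 genes, and 6 of them were above 0. Of the 7, 0 had groups that did not overlap, where 9.71% of all genes were higher without overlap, so the count says little in so few genes. Summed, they were at 704, 630.3 and 585 normalized counts at day 3 and at 767, 724 and 709 at day 28, a ratio of 1.15 with no overlap by a narrow gap. Whether gamma A and gamma B genes differ from each other was not tested. Pcdhgb6, the B gene of highest level, was at 170.4, 149 and 136 at day 3 and at 182, 146 and 142 at day 28 (log2 difference 0.04, SE 0.18). Pcdhgb7 was at 107, 82.3 and 58.4 at day 3 and at 176, 101 and 90.04 at day 28 (log2 difference 0.54, SE 0.32), with day 28 replicate 1 alone above all day 3 libraries by a wide gap. Pcdhgb1, Pcdhgb4, Pcdhgb5 and Pcdhgb8 had differences of 0.41, 0.15, -0.09 and 0.36, each within 1.5 of its SE.

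The spread between libraries of the same day was larger than counting error for most members. The chi-square per degree of freedom among same-day libraries, which is near 1 where only counting error acts, had a median of 4.35 over the tested members and 6.205 over all tested genes. It was 2.69 in the alpha cluster, 5.98 in beta and 3.38 in gamma. This chi-square grows with a gene's reads, so it does not compare the spread of genes of unlike level. On the log2 scale the median SE of the fitted difference was 0.28 over the tested members and 0.18 over all tested genes. By cluster it was 0.41 in alpha, 0.27 in beta and 0.26 in gamma. Single members had a chi-square well above the cluster medians, with 27.3 for Pcdhgc5, 26.0 for Pcdhgc3 and 17.9 for Pcdhb17. Pcdhga3 was at 0.394 and Pcdhgc4 at 0.915. Pcdhgc5 and Pcdhgc3 had high mean normalized counts, 1064 and 1049, and their SEs, 0.15 and 0.16, were below the members' median.

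Day 3 replicates did not deviate in the same clusters. Mean deviations of the tested alpha genes from their own means were -0.12, 0.00 and -0.52 (log2) in day 3 replicates 1 to 3. Those of the beta genes were -0.10, -0.31 and -0.02, and those of the gamma genes 0.02, -0.20 and -0.29. So the alpha cluster was lowest in day 3 replicate 3, beta in replicate 2 and gamma in replicate 3. At day 28 all 3 clusters lay above 0 in every library, from 0.02 to 0.32. Of the 55 tested members, 49 had their lowest value of 6 in a day 3 library and 45 their highest in a day 28 library. These counts in part restate that 47 of the 55 differences were above 0. They were not made over all tested genes, so they are a description of the members only.

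A run of neighbouring beta genes had its lowest values in the same library. Pcdhb15, Pcdhb16, Pcdhb17, Pcdhb18 and Pcdhb19, which follow each other on the chromosome, were all lowest of the 6 libraries in day 3 replicate 2, as were 9 of the 21 tested beta genes. Their deviations from the day 3 mean in that library were -0.72, -0.40, -0.60, -0.77 and -0.53 (log2). For Pcdhb16 day 3 replicate 3 was nearly as low, and replicate 1 stood apart above both. The run was picked after the values were seen and was not tested, and the share of all tested genes lowest in that library was not counted. Across the whole beta cluster the within-day deviations of next neighbours had a median correlation of 0.18 over 20 pairs, against 0.00 over the other 190 pairs, and the neighbour pairs include those of the run itself. In the gamma cluster it was 0.16 against 0.11, and in the alpha cluster -0.24 against 0.18. Each r rests on the same 6 libraries.

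**Figure D4:**
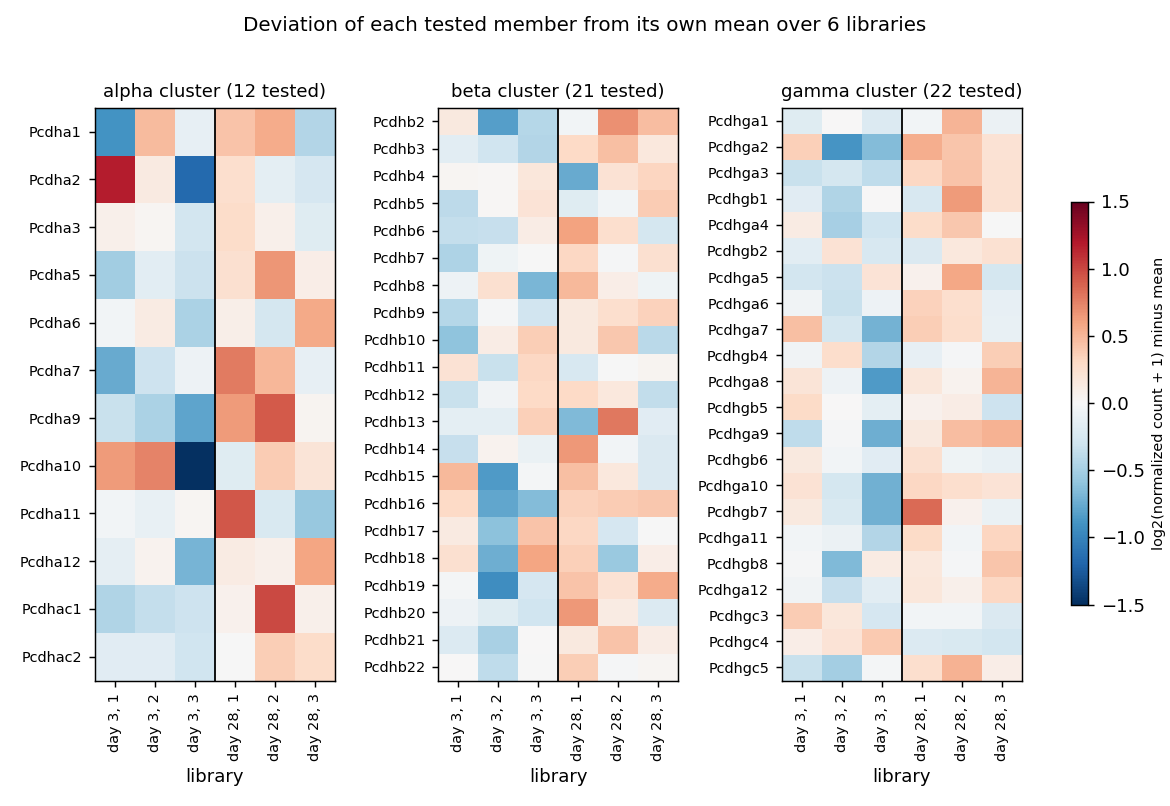
Deviation of log2(normalized count + 1) of each tested member from its own mean over the 6 libraries, in cluster order, with colours that end at -1.5 and 1.5 and a line between day 3 (left) and day 28 (right). Day 28 columns are mostly above the mean, the run from Pcdhb15 to Pcdhb19 is low in day 3 replicate 2, and Pcdha2 and Pcdha10 are low in day 3 replicate 3.

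Lists of other genes also differed between libraries and days. The 15 long transcripts, which lose reads where RNA is degraded, had a median log2 difference of 0.28 with 14 of 15 above 0, and their mean deviations were 0.17, -0.36 and -0.21 in the day 3 libraries against 0.15, 0.07 and 0.19 in those of day 28. Over all tested members the mean deviations were -0.06, -0.20 and -0.24 in the day 3 libraries and 0.21, 0.22 and 0.06 in those of day 28. The lowest library was day 3 replicate 2 for the long transcripts and the beta cluster, and day 3 replicate 3 for the alpha and gamma clusters. The 12 forebrain markers had a median of 0.59, with 12 of 12 above 0 and summed levels of 14978 to 23039 at day 3 and 27091 to 31208 at day 28. The 12 olfactory bulb and neuroblast markers had a median of 1.14, with summed levels of 3683 to 5152 and 6151 to 11789. The 18 cerebellar markers had a median of -1.94, and the 11 tested of 14 hindbrain and midbrain markers one of -3.47. In some library 4 of the cerebellar markers (Pcp2, Gabra6, Barhl1 and Fat2) and 8 of the hindbrain and midbrain markers were at 0. The part of RNA quality and tissue region in the members' differences was not tested beyond the fits with a covariate and without libraries.

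The pan-neuronal and non-neuronal lists had medians between -0.60 and 0.03. The median log2 difference was -0.07 for the 12 pan-neuronal markers, of which 3 were above 0, -0.49 for 10 oligodendrocyte markers, -0.50 for 10 astrocyte markers and -0.09 for 8 oligodendrocyte precursor markers. It was -0.19 for 10 microglia markers, 0.03 for 10 endothelial markers, -0.60 for 10 fibroblast and meningeal markers and -0.12 for the 9 tested choroid plexus and ependyma markers. The summed oligodendrocyte level was 115333 to 137190.3 normalized counts at day 3 and 78294 to 97127 at day 28, without overlap.

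**Figure D5:**
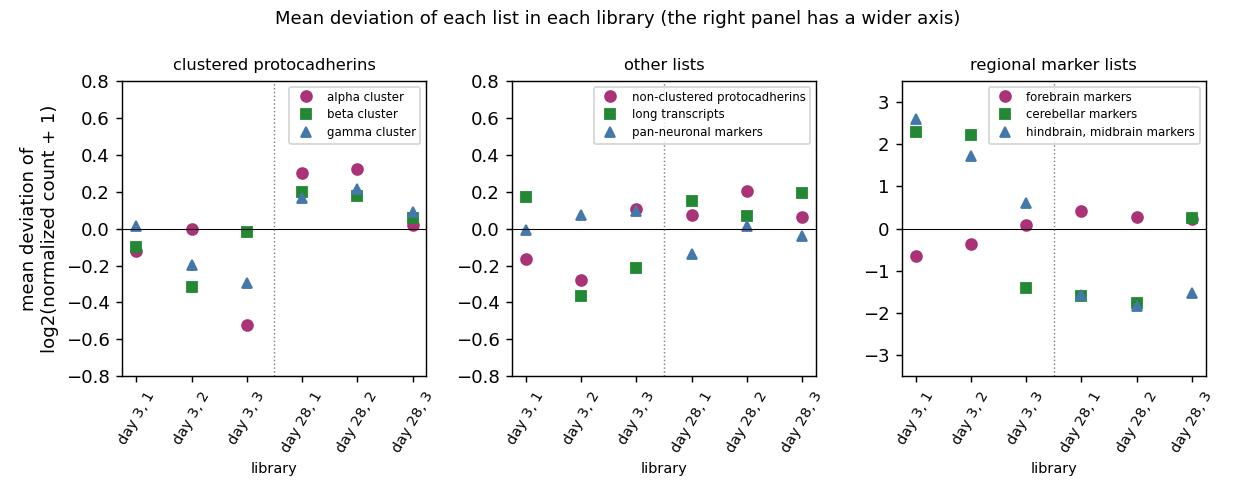
Mean deviation of log2(normalized count + 1) from each gene's mean, averaged over a list, in each library, for the clusters (left), other lists (middle) and regional markers (right, wider axis). The clusters and the long transcripts are above 0 in all day 28 libraries, and cerebellar markers are high in day 3 replicates 1 and 2.

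Genes that act with clustered protocadherins were taken from 6 lists, in which 0 genes passed the test. Over all tested genes, 9.71% were higher at day 28 without overlap and 9.21% lower. Of the 11 tested non-clustered protocadherins, relatives encoded outside the clusters, 6 were higher at day 28 without overlap and 0 lower. The median log2 difference was 0.28, and 7 of 11 were above 0, against 48.6% of all tested genes. Pcdh10 was at 2418, 2497 and 3057 normalized counts at day 3 and at 4400, 4200.2 and 3611 at day 28. The day 28 libraries were all above day 3, and the log2 difference was 0.62 (SE 0.12, limma adjusted p = 0.0853). Pcdh7 and Pcdh15 had differences of 0.41 (SE 0.11) and 0.74 (SE 0.21). Of 14 tested classical and related cadherins, 6 were higher without overlap and 1 lower, with a median of 0.13 and 9 of 14 above 0. The smallest p were those of Cdh12, at 0.75 (SE 0.15, limma adjusted p = 0.102), Cdh6, at 0.56 (SE 0.16), and Cdh9, whose difference of 1.01 (SE 0.28) was the highest of the list.

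Genes that set promoter choice had a median near that of all genes. Over 25 genes for CTCF, cohesin and chromatin the median was 0.05, and 18 of 25 were above 0, against 48.6% of all tested genes. Without overlap 4 were higher and 0 lower, against 9.71% and 9.21% of all tested genes, which says little in so few genes. The cohesin regulators Pds5b and Pds5a had differences of 0.23 (SE 0.08) and 0.27 (SE 0.11), and Dnmt1, the maintenance DNA methyltransferase, 0.21 (SE 0.10).

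Among 23 kinases and WAVE complex genes, which lie downstream of the protocadherin cytoplasmic domains, the median was 0.12. Of the 23, 18 were above 0, against 48.6% of all tested genes. Without overlap 8 were higher and 2 lower, against 9.71% and 9.21% of all tested genes. Ptk2, the focal adhesion kinase that gamma and alpha protocadherins bind and inhibit, was at 1171, 1140.3 and 1187 normalized counts at day 3 and at 1632, 1539 and 1589 at day 28. The days were far apart against the range within each (log2 difference 0.44, SE 0.08, limma adjusted p = 0.0786). The protein kinase C genes Prkca and Prkcb had differences of 0.63 (SE 0.15) and 0.47 (SE 0.12).

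The proteases that cut protocadherins at the membrane had a median of -0.10 over 9 genes, beside a median SE of 0.15. Of the 9, 2 were above 0, against 48.6% of all tested genes. Without overlap 1 was higher and 2 lower, against 9.71% and 9.21% of all tested genes, which says little in so few genes. Psen2, a catalytic subunit of gamma-secretase, was at 235, 279.7 and 197 normalized counts at day 3 and at 155, 126 and 165 at day 28, all below day 3 (log2 difference -0.67, SE 0.19, limma adjusted p = 0.184). Aph1a, another subunit, had a difference of -0.24 (SE 0.12), and Mmp14, a membrane metalloprotease, one of 0.73 (SE 0.19). The 20 neurexins, neuroligins and other synaptic adhesion genes had a median of 0.10, with 14 of 20 above 0. Of these, 5 were higher without overlap, against 9.71% of all tested genes. Those of smallest p were Cadm2 at 0.39 (SE 0.10), Ncam2 at 0.53 (SE 0.14) and Nrxn3 at 0.26 (SE 0.09).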

How the data were processed

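Polyadenylated RNA from brain was sequenced in 6 stranded libraries, 3 at day 3 and 3 at day 28, per the labels' protocols. The deposited table holds log2 values on the build GRCm39, per the submitters' processing notes, and the aligner, counter, annotation and scaling tool are not given in the sources used here. Taking the deposited log2 values back to a linear scale and removing the added 1 gave whole reads, once divided by a step per library, for 100% of values (tolerance 0.001), with size factors of 0.822 to 1.12 that equal median-of-ratios factors. No library repeated another: the chi-square per degree of freedom between same-day libraries was 8.98 or more.

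Because the deposited unit is log2, limma 3.58.1 in R 4.3.3 was run on log2(normalized count + 1), with an intensity trend, day as the only term, 4 residual degrees of freedom, two-sided tests and Benjamini-Hochberg adjustment over the 16162 genes whose normalized counts averaged at least 10 (threshold 0.05). Fold changes on this scale understate changes of low genes. The procedure was tested on simulated data, where it called 79% of genes changed 2-fold upward and 0.0489% of unchanged genes. Changes smaller than 2-fold were not simulated. The check therefore does not show how often differences near the members' median of 0.35 (log2) would be called. The 79% is not a share for the members, and how often a 2-fold difference of a member would be called was not tested. The median SE of the fitted log2 difference was 0.28 over the tested members, 0.41 in the alpha cluster and 0.18 over all tested genes.

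GENCODE M21 gave a symbol for 52073 of 56748 identifiers. That annotation is on an older build, so exon lengths and shared exon were taken from it but no coordinates. The members and the 20 gene lists were chosen with earlier results of these data known. The named genes were the C-type genes and, per group of alternate genes, the 3 of highest and of lowest count, the 3 of smallest p and the 2 of largest difference, and up to 3 of smallest p per list of other genes. Other names were chosen after their values were seen. Alternatives changed the pseudocount, filter, scaling, variance model, replicate block, threshold and libraries, and added voom and a cerebellar covariate. For the summed levels they were added after the data were seen. Figures were drawn with matplotlib 3.10.9.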

Additional observations from a re-analysis of the deposited data

How the results depend on the processing

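The number of members called was 0 under every setting except the removal of 1 library. Leaving out each library in turn gave 0 to 1 members called, and the 1 was Pcdhgc5, without day 3 replicate 3. Over all settings the adjusted p of Pcdhgc5 (limma or voom) ran from 0.0395 to 0.598. The median log2 difference stayed above 0 in each cluster under every setting. Leaving out single libraries moved it from 0.35 to 0.68 in alpha, 0.19 to 0.43 in beta and 0.30 to 0.44 in gamma. The alpha median of 0.68 came without day 3 replicate 2 and the beta median of 0.43 without day 28 replicate 3. With day 3 replicates 1 and 2 removed, the alpha median was 0.63, the summed alpha ratio 1.51 and the number of members whose groups did not overlap 37 (33 higher, 4 lower), with only 1 day 3 library left and 29.6% of all genes then higher without overlap. With the cerebellar covariate the beta median was 0.13. The cause of these moves was not tested. Scaling by upper quartile moved the median of all genes from -0.01 to 0.03 and that of the members to 0.40.

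Among the 32 named and tested members, 25 kept 1 sign under every setting. The other 7 changed sign in some setting. Leaving out single libraries moved Pcdha11 from -0.36 to 0.39, Pcdhb4 from -0.34 to 0.20, Pcdhb17 from -0.26 to 0.26, Pcdhgb4 from -0.036 to 0.32, Pcdhgb5 from -0.19 to 0.037 and Pcdhgb6 from -0.068 to 0.13. With the cerebellar covariate Pcdha11 had a difference of -0.16 and Pcdhb17 of -0.26. With day 3 replicates 1 and 2 removed Pcdhb17 had -0.41, Pcdhgb5 0.10 and Pcdhgc3 0.15. None of the 7 passed the test in any setting.

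The labels number the libraries 1 to 3 on each day but do not say that a number marks a shared animal, batch or day. Same-numbered libraries correlated at 0.03, 0.13 and -0.06 in their deviations from the day means, so the numbers were not taken as pairs. With a replicate block 0 members and 0 genes in all were called, and the smallest adjusted p of a member was 0.169. Depth limits the alternate alpha genes most, since 6 of 12 had fewer than 10 reads in some library. Removal of libraries leaves fewer samples, and where 1 day 3 library remained it was assumed to vary like the others.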
